A study of Homo sapiens with 7 samples.

Results

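Annexins, S100 proteins and galectins are families of small soluble proteins, described here by their RNA in human embryonic stem cells (hESC) and in 6 sorted fractions of their differentiation toward heart muscle. Members were taken by gene symbol (ANXA plus a number, any symbol that starts with S100, LGALS plus a number with an optional letter), which gave 49 of 23262 genes. They comprise 12 annexin, 22 S100 and 15 galectin symbols. S100PBP, a nuclear protein that binds S100P and is not itself an S100 protein, is among them because its symbol matches. The families were chosen by measured values of the day 7 sort, where S100A10, ANXA1 and LGALS1 had some of the lowest ratios of all genes. The day 7 values are therefore a description of how the members were picked and support nothing further.

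Every library came from 1 reporter line, with eGFP at the heart transcription factor gene NKX2-5 and mCherry reporting alpha-MHC, the cardiac myosin heavy chain. The line field of the labels differs between samples only in the number after NKX2, which counts upward, and all were read as the same line. The groups were untreated day 0 hESC, day 3 CD13+/ROR2+ cells (labelled mesoderm progenitor), day 3 CD13-/ROR2- cells (labelled endoderm progenitor), day 7 CD13+/ROR2+/NKX2-5+ cells (labelled cardiac progenitor), day 7 CD13+/ROR2+/NKX2-5- cells (labelled unknown), day 14 CD13+/ROR2+/NKX2-5+/aMHC+ cells (labelled cardiomyocytes) and day 14 CD13+/ROR2+/NKX2-5+/aMHC- cells (labelled unknown). Below, the later fractions are named by their last marker. Each group is 1 library, so no value has a replicate check, and no p-value or standard deviation is given.

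Expression is in FPKM, fragment counts scaled by transcript length and library size, which allows levels of different genes to be set side by side. The steps between low values put the day 7 NKX2-5+ library at 0.599 times the depth of hESC, and day 3 CD13+/ROR2+ at 2.64 and day 14 aMHC+ at 2.0 times. For day 7 NKX2-5- no clear step was found. The absolute depth could not be recovered, and values under about 1 FPKM rest on few reads. Cardiomyocyte markers summed to 6538 FPKM in day 14 aMHC+, 4574 in day 7 NKX2-5+, 2407 in day 14 aMHC-, 861 in day 7 NKX2-5- and at most 32.6 in the 3 earlier libraries. In day 3 CD13-/ROR2-, hepatic and visceral endoderm markers summed to 4.52 FPKM and pluripotency markers to 975, against 1059 in hESC.

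Annexins bind phospholipid membranes when calcium rises, and are known for membrane organisation, vesicle traffic and the resealing of torn plasma membrane, a frequent event in beating muscle. S100 proteins are EF-hand calcium sensors that work as dimers on partner proteins. S100A10 is unusual in that it does not need calcium and joins annexin A2 in a heterotetramer under the plasma membrane. Galectins bind beta-galactoside sugars on cell surface and matrix glycoproteins.

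Only a few members carried most of the RNA. Of the 49, 9 were at 0 in all 7 libraries, 16 more stayed below 1 FPKM everywhere, 6 reached between 1 and 5 FPKM and 18 reached at least 5. S100A10 and S100A11 were the 2 highest members of the S100 family in all 7 libraries and made up between 55.5% (day 7 NKX2-5+) and 92.3% (day 7 NKX2-5-) of its summed FPKM. ANXA2 or ANXA5 led the annexins. LGALS1 led the galectins in all libraries but day 7 NKX2-5+, where LGALS3 did. Summed over all members, FPKM was 441 in hESC, 830 (CD13+/ROR2+) and 824 (CD13-/ROR2-) on day 3, 215 (NKX2-5+) and 1827 (NKX2-5-) on day 7, and 1074 (aMHC+) and 1602 (aMHC-) on day 14. The day 7 pair held the lowest and the highest of these sums, but the FPKM of all genes also differed in that pair, at 108220 in NKX2-5+ and 414781 in NKX2-5-. As a percent of each library's FPKM, the members made up 0.198% in day 7 NKX2-5+ and 0.440% in NKX2-5-, and the lowest share was that of hESC (0.176%) and the highest that of day 14 aMHC- (0.546%). The library totals behind these shares include 1711 small RNA and histone genes. Shares without those genes were not computed, so the order of the shares may depend on them. Median-ratio factors, which scale libraries by genes above 1 FPKM in all of them, lay closer together than these totals. They were 0.687 for day 7 NKX2-5+ and 0.926 for NKX2-5-. The libraries at the low and high ends thus differed between summed FPKM and percent of library FPKM.

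**Figure D1:**
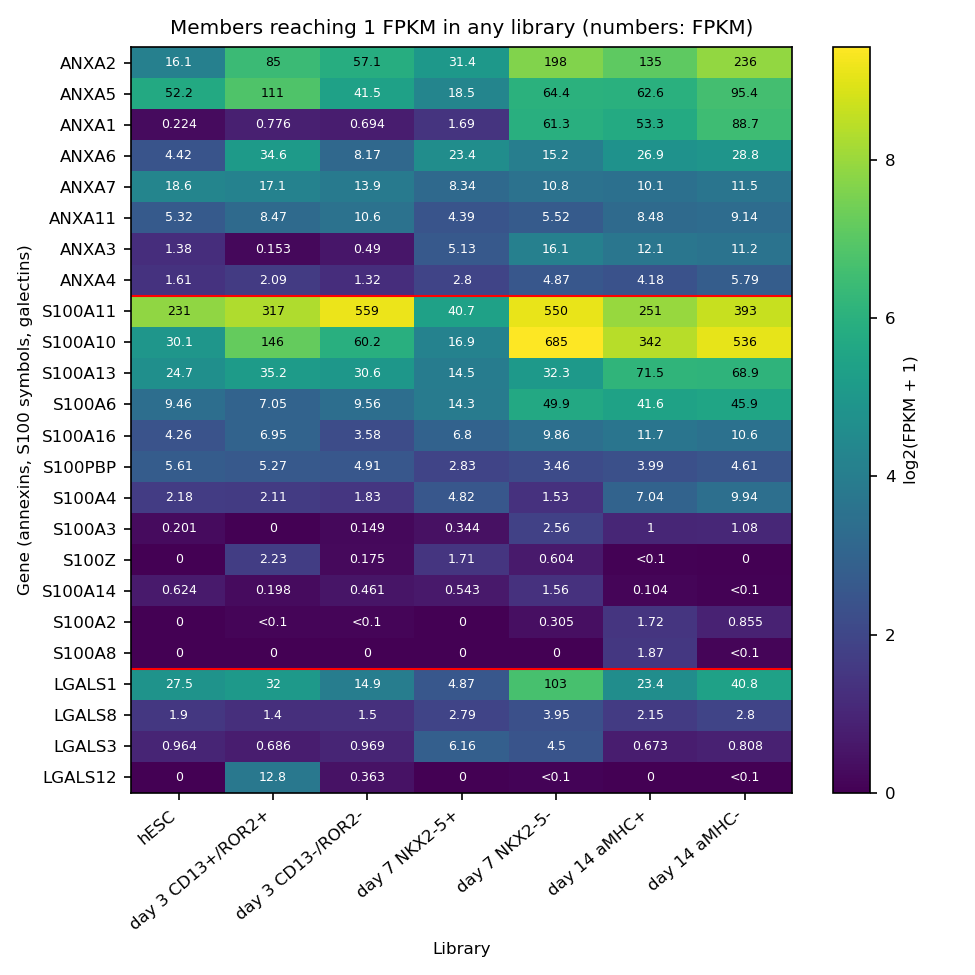
Level of the 24 members that reached 1 FPKM in any library, as colour on a log2(FPKM + 1) scale with FPKM printed in each cell; rows are genes grouped as annexins, S100 symbols and galectins, columns are the 7 libraries. S100A10 goes from 16.9 FPKM in day 7 NKX2-5+ to 685 in day 7 NKX2-5-, and LGALS12 exceeds 1 FPKM only in day 3 CD13+/ROR2+.

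S100A10, also called p11, and its partner ANXA2 are described first. S100A10 was at 30.1 FPKM in hESC, then 146 (CD13+/ROR2+) and 60.2 (CD13-/ROR2-) on day 3, 16.9 (NKX2-5+) and 685 (NKX2-5-) on day 7, and 342 (aMHC+) and 536 (aMHC-) on day 14. For ANXA2 the levels over these libraries were 16.1, 85.0, 57.1, 31.4, 198, 135 and 236 FPKM. Both genes had higher levels in day 3 CD13+/ROR2+ than in hESC, and their 3 highest libraries were day 7 NKX2-5- and the 2 of day 14. They differed at the low end, where S100A10 was lowest in day 7 NKX2-5+ and ANXA2 in hESC.

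The 2 partners did not keep a fixed ratio. S100A10 was at 1.87 times the FPKM of ANXA2 in hESC, 1.72 (CD13+/ROR2+) and 1.05 times (CD13-/ROR2-) on day 3, 0.538 (NKX2-5+) and 3.46 times (NKX2-5-) on day 7, and 2.53 (aMHC+) and 2.28 times (aMHC-) on day 14. Day 7 NKX2-5+ was the only one of the 7 libraries with less S100A10 than ANXA2. Part of the ANXA2 signal is uncertain, because the processed pseudogene ANXA2P2 is a near copy and reads could be split between them. ANXA2P2 was listed at 16.9, 52.3, 37.3, 34.9, 131, 64.3 and 121 FPKM over the 7 libraries. With ANXA2P2 added to ANXA2, the ratio was 0.910 in hESC, 1.06 and 0.637 on day 3, 0.255 and 2.08 on day 7, and 1.71 and 1.5 on day 14. Day 7 NKX2-5+ had the lowest ratio and NKX2-5- the highest in both versions, which share the S100A10 values. S100A10 was picked by its values in this pair, so nothing is read from these extremes.

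**Figure D2:**
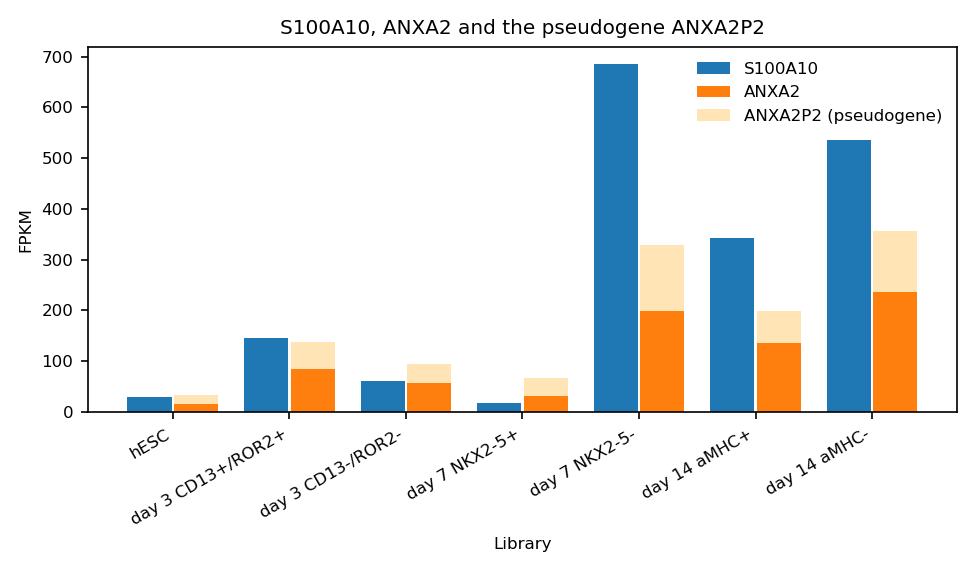
FPKM of S100A10 (blue), ANXA2 (orange) and the pseudogene ANXA2P2 stacked on ANXA2 (pale), by library, 1 library per bar. The S100A10 bar is the lower of the pair in day 7 NKX2-5+ (16.9 against 31.4 for ANXA2 alone) and the higher by the most in day 7 NKX2-5- (685 against 198). The day 7 values of S100A10 helped to choose the members.

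ANXA1, which binds phospholipids and whose protein is known for damping inflammation, had another time course. Its level was 0.224 FPKM in hESC, 0.776 (CD13+/ROR2+) and 0.694 (CD13-/ROR2-) on day 3, 1.69 (NKX2-5+) and 61.3 (NKX2-5-) on day 7, and 53.3 (aMHC+) and 88.7 (aMHC-) on day 14. The 4 libraries up to day 7 NKX2-5+ were all under 2 FPKM and the other 3 all above 50. The sequences before the starts of these 3 genes are shown because the genes share their 3 highest libraries yet differ in the first 3. Each is the strand of the gene, 250 bases up to the base before the RefSeq start in build GRCh38.p14, with CG dinucleotides, the sites of DNA methylation, in capitals.
S100A10 (chr1:151993860-151994109, minus strand): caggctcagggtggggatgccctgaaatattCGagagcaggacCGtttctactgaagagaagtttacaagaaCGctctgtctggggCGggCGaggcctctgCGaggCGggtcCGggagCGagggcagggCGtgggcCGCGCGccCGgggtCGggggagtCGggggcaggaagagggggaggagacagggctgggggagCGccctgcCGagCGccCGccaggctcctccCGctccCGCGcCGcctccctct
ANXA2 (chr15:60397987-60398236, minus strand): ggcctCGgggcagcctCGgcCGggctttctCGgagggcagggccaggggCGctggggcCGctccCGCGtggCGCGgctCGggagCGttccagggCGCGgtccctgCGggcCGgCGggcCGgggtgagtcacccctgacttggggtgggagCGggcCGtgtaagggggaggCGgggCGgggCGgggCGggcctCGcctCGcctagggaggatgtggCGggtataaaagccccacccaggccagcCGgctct
ANXA1 (chr9:73151615-73151864, plus strand): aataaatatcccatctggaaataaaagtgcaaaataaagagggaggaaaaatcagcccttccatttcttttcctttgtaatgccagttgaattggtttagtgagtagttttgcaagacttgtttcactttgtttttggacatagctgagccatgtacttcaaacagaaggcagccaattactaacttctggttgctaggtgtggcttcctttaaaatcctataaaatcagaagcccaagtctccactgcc

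The window of S100A10 holds 24 CG and that of ANXA2 holds 28, against a median of 17 over 14042 promoters of genes in the table. The ANXA1 window holds 0, as do 3.23% of those promoters, and its GC content is 38.4% against 71.2% for S100A10 and 78.0% for ANXA2. Of the 19 members with a mean of at least 1 FPKM over the 7 libraries, 17 matched a promoter entry (not LGALS1 and LGALS12), and they hold between 0 and 36 CG with a median of 18. The letters TATAAA, searched on both strands after the sequences had been seen, were in 5 of the 17 and in 5.09% of 8219 promoters of genes with that mean. In ANXA1, ANXA2 and S100A4 they begin 31 bases before the start. TGANTCA, the AP-1 motif, was in 2 of 17 (S100PBP and ANXA2) against 3.41% of the 8219, and GGAATG, the TEAD motif, in 1 of 17 (S100A16) against 9.44%, both read on either strand. These are letter matches in 1 annotated start per gene, and no binding or methylation was measured.

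On day 3, cells were sorted by CD13 (an aminopeptidase) and the WNT receptor ROR2, and the CD13+/ROR2+ and CD13-/ROR2- fractions are compared here. A gene was called higher or lower where log2 of (FPKM + 1) in one library over the other was at least 2 in size, a 4-fold difference, and the higher of the 2 values reached 5 FPKM. Of the 49 members 1 was higher in CD13+/ROR2+ (0.933% of all genes) and 0 lower (0.641% of all genes). This was LGALS12, a galectin known from fat cells, at 12.8 FPKM in CD13+/ROR2+ against 0.363 in CD13-/ROR2-, a 35.2-fold difference. It was listed at 0 in hESC, day 7 NKX2-5+ and day 14 aMHC+, at 0.0535 in day 7 NKX2-5- and at 0.0236 in day 14 aMHC-. No other library came within 10 FPKM of the day 3 mesoderm value.

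Just short of the size rule was ANXA6, the annexin with a doubled core, which was at 34.6 against 8.17 FPKM (log2 ratio 1.95). ANXA5, whose protein is the common probe for exposed phosphatidylserine, was at 111 against 41.5 FPKM. S100A10 was 2.43-fold and LGALS1 2.15-fold higher in CD13+/ROR2+. S100A11, a partner of ANXA1, lay on the other side at 317 against 559 FPKM. Over the 19 members of at least 1 FPKM on average, the median log2 ratio was 0.19, against 0.03 for all 11451 such genes. Pluripotency markers (5 of 10) and simple epithelium markers (5 of 11) were lower in CD13+/ROR2+. Of the fibroblast and matrix markers 3 of 14 were higher and 1 lower, with sums of 180 against 77.8 FPKM. Of the hepatic and visceral endoderm markers 2 of 15 were higher (1 after median-ratio scaling), with sums of 40.2 against 4.52 FPKM. The part of these cells in the member values was not tested.

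Against hESC, 4 of the 49 members were higher in day 3 CD13+/ROR2+ (1.13% of all genes) and 0 lower (0.641%). ANXA6 was at 34.6 against 4.42 FPKM, ANXA2 5.27-fold and S100A10 4.85-fold higher, and LGALS12 is listed at 0 in hESC. The median ratio of the 19 members was 0.46, against -0.01 over all genes of that mean. S100A11 (317 against 231 FPKM) and LGALS1 (32.0 against 27.5) differed little by comparison. ANXA3 was at 0.153 against 1.38 FPKM, both too low for the rule.

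The day 7 sort separated cells with and without the NKX2-5 reporter. The day 7 NKX2-5+ library held lower levels of 5 of the 49 members (1.16% of all genes were lower) and higher levels of 0 (0.434% of all genes). Since this contrast picked the members, nothing is read from that share. S100A10 was 40.5-fold lower in NKX2-5+, ANXA1 36.2-fold and LGALS1 21.1-fold. S100A11 was 13.5-fold lower and ANXA2 6.30-fold, or 4.96-fold with ANXA2P2 added. These 5, with ANXA2 taken without ANXA2P2, passed the rule under each scaling and pseudocount tried (0.894% of all genes were lower after median-ratio scaling).

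LGALS1 encodes galectin-1, a secreted dimer that crosslinks matrix and surface glycoproteins. It stood at 27.5 FPKM in hESC, 32.0 (CD13+/ROR2+) and 14.9 (CD13-/ROR2-) on day 3, 4.87 (NKX2-5+) and 103 (NKX2-5-) on day 7, and 23.4 (aMHC+) and 40.8 (aMHC-) on day 14. It was lower in both day 14 libraries than in day 7 NKX2-5-, by 4.38-fold in aMHC+ and 2.52-fold in aMHC-. S100A11 had 231, 317, 559, 40.7, 550, 251 and 393 FPKM over the same libraries, so that 6 of the 7 libraries were above 200 and day 7 NKX2-5+ alone was far below. S100A10 and S100A11 are next to each other on chromosome 1 in RefSeq, where 16 S100 genes have another S100 gene as a neighbour.

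**Figure D3:**
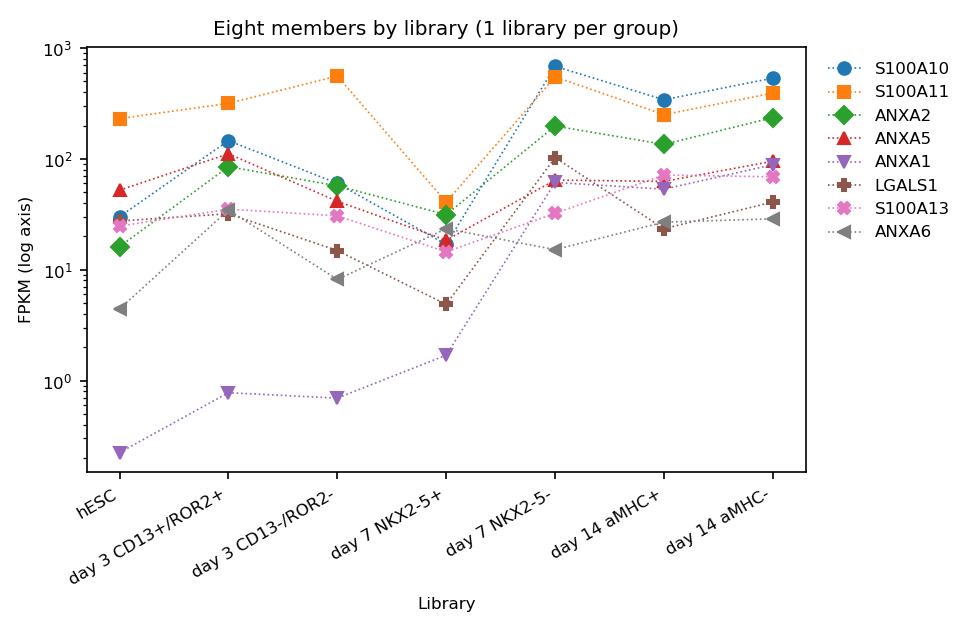
FPKM on a log axis of 8 members by library (1 library per point; dotted lines only guide the eye). S100A10, S100A11, ANXA5, LGALS1 and S100A13 have their lowest point in day 7 NKX2-5+, ANXA1 and ANXA2 in hESC, and ANXA6 at 23.4 FPKM in day 7 NKX2-5+ lies above its level of 15.2 in NKX2-5-.

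Other members differed less on day 7 or lay on the other side. ANXA5 was at 52.2 FPKM in hESC, 111 and 41.5 on day 3, 18.5 (NKX2-5+) and 64.4 (NKX2-5-) on day 7, and 62.6 (aMHC+) and 95.4 (aMHC-) on day 14. S100A6, or calcyclin, was 14.3 against 49.9 FPKM on day 7 and ANXA3 5.13 against 16.1, both short of the rule. ANXA7, ANXA11, LGALS8, S100A16 and S100PBP differed by 1.22-fold to 1.45-fold. Among the 19 members with a mean of at least 1 FPKM over the 7 libraries, those with more RNA in NKX2-5+ were S100A4, a regulator of cell motility (4.82 against 1.53 FPKM), ANXA6 (23.4 against 15.2) and LGALS3, the chimera-type galectin (6.16 against 4.50), none past the rule.

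Of the 19 members with a mean of at least 1 FPKM, 16 had a lower value in NKX2-5+, and so did 76.5% of all 11451 genes, with a shift of 0.43 on the log2 scale between the pair under median-ratio scaling. The median of the 19 was -0.63 against -0.35 for all genes, and -0.30 against -0.05 after median-ratio scaling. Day 7 NKX2-5+ was the lowest of the 4 libraries of days 7 and 14 for 15 of the 19 members, beside 62.4% of all genes. After scaling this held for 10 of 19, beside 33.0% of all genes. Low values in day 7 NKX2-5+ helped to choose the members, so nothing is read from these shares and medians.

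Markers of several other cell types were also lower in day 7 NKX2-5+, to differing extents. Fibroblast and matrix markers (14 genes) summed to 85.4 FPKM in day 7 NKX2-5+ and 925 in NKX2-5-. Of these, 11 of 14 were lower in NKX2-5+ (9 after median-ratio scaling), beside 1.16% of all genes (0.894% after scaling). Hepatic and visceral endoderm markers (15 genes) summed to 78.2 and 432 FPKM, with 6 of 15 lower (4 after scaling). HNF4A, FOXA2 and CDX2 were at 0 in NKX2-5+ and above 0 in NKX2-5-. Epicardial markers summed to 21.9 and 131 FPKM, with 4 of 12 lower. Simple epithelium markers summed to 101 and 737 FPKM, with 2 of 11 lower and 0 higher (1 higher after scaling). Smooth muscle markers differed less, at 594 and 811 FPKM with 2 of 10 lower. Endothelial markers summed to 12.4 and 58.5 FPKM, with 2 of 12 lower. Cardiomyocyte markers were on the opposite side, 13 of 16 higher in NKX2-5+. Beta-actin (ACTB) was at 393 against 2578 FPKM, as 1 of 13 housekeeping genes past the rule. The part of these cells in the differences of S100A10, ANXA1, LGALS1, S100A11 and ANXA2 was not tested. In such bulk RNA, fewer cells of a type and less RNA per cell cannot be told apart.

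The day 14 sort split NKX2-5+ cells by the alpha-MHC reporter. Its libraries took no part in the day 7 contrast that picked the members. None of the 49 members was called, so that 0 were higher (0.159% of all genes) and 0 lower (0.0860% of all genes). S100A10 was 1.57-fold, S100A11 1.57-fold, ANXA1 1.66-fold, ANXA2 1.74-fold and LGALS1 1.74-fold higher in aMHC- than in aMHC+. The 5 members that stood out on day 7 were thus higher in aMHC-, by under 2-fold. After median-ratio scaling their log2 ratios ran from -0.59 (ANXA2) to -0.43 (S100A11). Both day 14 fractions are NKX2-5+, so aMHC- cells are not the counterpart of day 7 NKX2-5- cells. In all, 16 of the 19 members had lower values in aMHC+, as had 70.3% of all genes, and the medians were -0.17 and -0.15. After median-ratio scaling 12 of the 19 were lower in aMHC+, beside 49.5% of all genes, and the medians were -0.03 and 0. Fibroblast and matrix markers summed to 476 FPKM in aMHC+ and 921 in aMHC-, with 0 of 14 past the rule, and hepatic and visceral endoderm markers to 5.13 and 3.96.

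Each day 7 fraction was also set against day 3 CD13+/ROR2+. These comparisons share the day 3 library with each other and the day 7 libraries with the sort above, so the values are given side by side only. In day 7 NKX2-5- over day 3, 4 of 49 members were higher (1.37% of all genes) and 1 lower (0.941%). ANXA1 was at 61.3 against 0.776 FPKM (79.0-fold) and ANXA3 at 16.1 against 0.153 (105-fold). Their day 3 values rest on few reads, so the size of both folds is uncertain. S100A6 was 7.08-fold and S100A10 4.69-fold higher, and LGALS12 was lower. In day 7 NKX2-5+ over day 3, 2 of 49 were higher (1.06% of all genes), LGALS3 at 6.16 against 0.686 FPKM and ANXA3 at 5.13 against 0.153. Of the 49, 5 were lower (2.20% of all genes), but 3 after median-ratio scaling (1.21% of all genes). S100A10 (8.65-fold), S100A11 (7.79-fold) and LGALS12 (listed at 0 on day 7) stayed past the rule, and LGALS1 (6.57-fold) and ANXA5 (6.02-fold) did not.

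Day 14 aMHC+ cells were then set against day 7 NKX2-5+ cells, the 2 libraries with the highest cardiomyocyte marker sums. Of the 49 members 6 were higher on day 14 (1.75% of all genes) and 1 lower (0.189%). This pair reuses the day 7 NKX2-5+ library, whose low values helped to choose the members, so nothing is read from the count. After median-ratio scaling, which shifts the ratios of this pair by -0.61, the 6 became 2, ANXA1 and S100A10 (0.898% of all genes). ANXA1 was at 53.3 against 1.69 FPKM and S100A10 at 342 against 16.9. S100A11, S100A13, ANXA2 and LGALS1 were between 4.31-fold and 6.16-fold higher before scaling. With ANXA2P2 added, ANXA2 was 3.01-fold higher, short of the rule. With day 7 NKX2-5- in place of NKX2-5+, an alternative chosen after the data were seen, 0 of 49 were higher in day 14 aMHC+. LGALS3 was the member with the opposite course, at 0.964 FPKM in hESC, 0.686 and 0.969 on day 3, 6.16 and 4.50 on day 7 and 0.673 and 0.808 on day 14. Only its 2 day 7 libraries exceeded 1 FPKM.

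Marker levels differed in this pair too. Fibroblast and matrix markers summed to 476 FPKM in day 14 aMHC+ against 85.4 in day 7 NKX2-5+ (4 of 14 past the rule, 3 after scaling), and simple epithelium markers to 1122 against 101. Of the 11 simple epithelium genes 3 were higher, and their median log2 ratio was 0.32, or 0.01 after scaling. In this list the keratin gene KRT8 was at 389 against 20.7 FPKM and KRT18 at 560 against 38.8. Hepatic and visceral endoderm markers went the other way, at 5.13 against 78.2 FPKM. Smooth muscle markers summed to 1202 against 594 FPKM, with 5 of 10 higher (3 after scaling), and 3 of 13 housekeeping genes were higher (0 after scaling). Cardiomyocyte markers summed to 6538 against 4574 FPKM with none of the 16 genes past the rule (1 lower after scaling). What these markers contribute to S100A10 and ANXA1 was not tested.

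**Figure D4:**
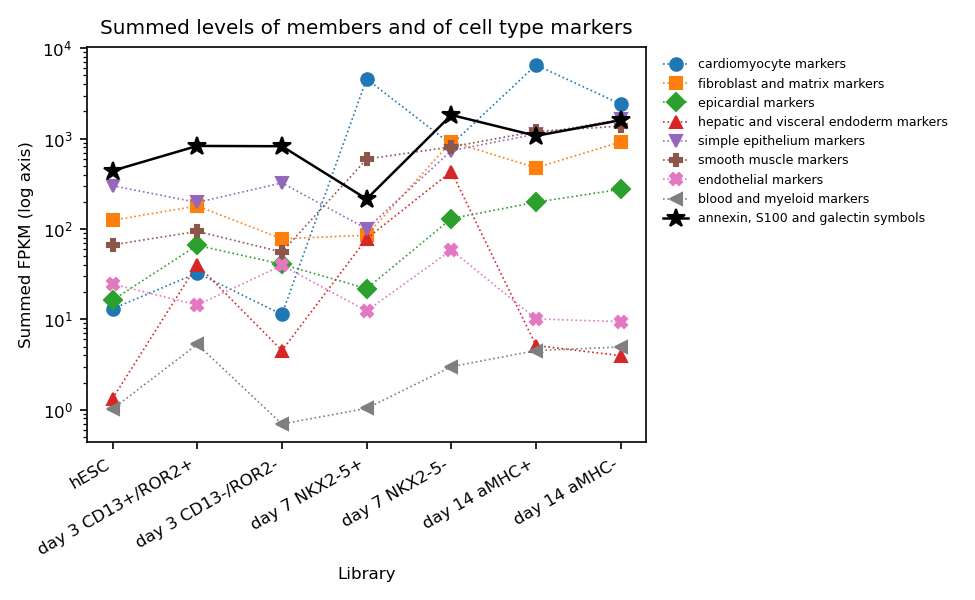
Summed FPKM (log axis) of the 49 members (black stars) and of 8 cell type marker lists by library (1 library per point; lines only guide the eye). The member sum is lowest in day 7 NKX2-5+ (215 FPKM) and highest in day 7 NKX2-5- (1827), and the fibroblast and matrix sum is 85.4 and 925 in the same 2 libraries, whose FPKM over all genes are 108220 and 414781. As a percent of library FPKM, small RNA and histone genes included, the member sum is lowest in hESC (0.176%) and highest in day 14 aMHC- (0.546%). The ranking thus differs between summed FPKM and percent.

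The remaining members with appreciable RNA followed other courses. S100A13, which assists the release of growth factors that lack a signal peptide, was at 24.7 FPKM in hESC, 35.2 and 30.6 on day 3, 14.5 (NKX2-5+) and 32.3 (NKX2-5-) on day 7, and 71.5 (aMHC+) and 68.9 (aMHC-) on day 14. ANXA6 was at 4.42, 34.6, 8.17, 23.4, 15.2, 26.9 and 28.8 FPKM in the library order of the opening, lowest in hESC and highest in day 3 mesoderm. ANXA7, an annexin with a long amino-terminal tail, was highest in hESC (18.6 FPKM), with 8.34 to 17.1 elsewhere. S100A6 ranged from 7.05 to 14.3 FPKM up to day 7 NKX2-5+ and from 41.6 to 49.9 in the other 3. ANXA3 was at most 1.38 FPKM up to day 3 and between 5.13 and 16.1 later. ANXA4 ranged from 1.32 to 5.79 FPKM, ANXA11 from 4.39 to 10.6, S100A16 from 3.58 to 11.7, S100A4 from 1.53 to 9.94, S100PBP from 2.83 to 5.61 and LGALS8 from 1.40 to 3.95.

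Some members known from specialised cells were near 0. S100A1, an S100 protein of heart muscle that acts on calcium cycling, was between 0 and 0.655 FPKM, with 0.119 in day 14 aMHC+ and 0 in aMHC-. S100B, known from glia, stayed at or below 0.445 FPKM. S100A9 and S100A12 of myeloid cells were at 0 in all 7 libraries, while S100A8, the partner of S100A9, was at 1.87 FPKM in day 14 aMHC+, 0.0969 in aMHC- and 0 elsewhere. The leukocyte gene PTPRC was at 0 in day 14 aMHC+. S100Z was at 2.23 FPKM in day 3 CD13+/ROR2+ and 1.71 in day 7 NKX2-5+, and at most 0.604 in the other 5. Near-identical copies (LGALS7 and LGALS7B, LGALS9 with LGALS9B and LGALS9C, ANXA8 with ANXA8L1 and ANXA8L2) could have shared reads, and their values are uncertain to that extent. Genes that overlap on opposite strands are uncertain too, since the library kit keeps no strand.

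Genes that act with these families were read from 3 lists. Of 21 genes of membrane repair, 2 were lower in day 7 NKX2-5+ (1.16% of all genes) and 0 higher (0.434%). These were AHNAK, a giant scaffold protein that binds S100A10 with annexin A2 (3.27 against 27.1 FPKM), and the membrane-shaping ATPase gene EHD2 (0.690 against 16.0). On day 3, when 0.933% of all genes were higher and 0.641% lower in CD13+/ROR2+, 1 was higher, the ferlin gene MYOF (12.4 against 0.250 FPKM), and 1 lower, the caveolar coat gene PTRF (0.154 against 5.30). On day 14 0 were called in either direction (0.159% of all genes higher and 0.0860% lower). TRIM72 and CAV3, of muscle membrane repair, were at most 0.250 FPKM in every library.

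Of 23 partner and receptor genes in the table, 3 were lower in day 7 NKX2-5+ (1.16% of all genes) and 0 higher (0.434%). These were AHNAK, the scaffold gene IQGAP1 (1.37 against 15.4 FPKM) and PLAT, the plasminogen activator that docks on the S100A10 and annexin A2 complex (0.376 against 8.51). PLAT was at 29.7 FPKM in day 14 aMHC+ and 60.8 in aMHC-, and under 1 in the other 4. The formyl peptide receptor genes FPR1 and FPR2, receptors for annexin A1, were at most 0.0325 FPKM in all 7 libraries. AGER, a receptor for several S100 proteins, reached 3.57 FPKM in day 14 aMHC+. None of the 23 was called on day 3 or day 14.

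Of 18 genes for galectin ligands and their sugar chains, 2 were lower in day 7 NKX2-5+ (1.16% of all genes) and 0 higher (0.434%). These were the integrin gene ITGA1 (0.802 against 22.4 FPKM) and the fibronectin gene FN1 (60.2 against 408). On day 3 the integrin gene ITGA5 was higher in CD13+/ROR2+ (31.3 against 6.89 FPKM; 0.933% of all genes were higher), though not after median-ratio scaling. The N-glycan branching enzyme gene MGAT5, which makes preferred galectin-3 ligands, was between 2.98 and 7.54 FPKM. On day 14 none was called. Medians on day 7 were -0.63 for membrane repair, -0.36 for partners and -0.73 for galectin ligands, against -0.35 for all genes. After median-ratio scaling they were -0.23, -0.08 and -0.50, against -0.05 for all genes. The lists share some genes, such as AHNAK.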

How the data were processed

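RNA-seq of 7 libraries was read from 1 deposited table of FPKM values, 1 column per library, which the authors made with Cufflinks on build hg19 per the submitters' processing notes; aligner, versions and annotation: not given in the sources used here. Libraries (TruSeq v2) of cells sorted 2 times were read as single reads, per the labels' protocols. Of 23368 rows, 106 were blank and left out. Differences are log2 of (FPKM + 1) ratios, called at 2 in size where the higher value reached 5 FPKM. Fold values are quotients of FPKM. Medians use genes with a mean of at least 1 FPKM over all 7 libraries. Median-ratio factors came from 7780 genes above 1 FPKM in all libraries. The comparisons number 7. Members at 5 FPKM or more in any library are named, and those at 50 or more, or called in a within-day pair, are given in every library. From the other lists up to 4 called genes per pair are named. Members, lists and rules were chosen with earlier results of these data known. The ANXA2R symbol was not matched. RefSeq tables (GRCh38.p14) gave gene order for 47 of 49 members and the promoter sequences. The scripts (Python 3.11.15, numpy 2.4.6, pandas 2.3.3) were tested on simulated data.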

Additional observations from a re-analysis of the deposited data

How the results depend on the processing

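With 1 library per group, no replicate can be left out. No paired analysis was possible because each group has 1 library. The 21 counts and medians over the members were recomputed in 111 ways (pseudocounts of 0.1 and 5, no minimum FPKM, 2 scalings, and 2 exchanged libraries). Of these, 96 stayed on the same side of their threshold or within 1.5 times, and 0 changed sign past the threshold. No median as deposited reached the threshold size of 1, so shifts below it are counted as the same. For day 14 aMHC+ over day 7 NKX2-5+ the median of 0.82 became 0 without small RNA and histone genes. It was -0.18 with day 7 NKX2-5- exchanged in. For day 7 NKX2-5- over day 3 the median of 0.79 became 0.05 with no minimum FPKM, over 40 members. With a pseudocount of 0.1, 2 members in place of 1 were higher in the day 3 pair. With a pseudocount of 5, 0 were higher in the day 3 pair and LGALS12 fell short at 1.73, 0 were higher and 3 lower in day 7 NKX2-5+ over day 3, 0 were lower in day 7 NKX2-5- over day 3, and 3 were higher and 0 lower in day 14 aMHC+ over day 7 NKX2-5+. Median-ratio scaling gave 3 lower in day 7 NKX2-5+ over day 3, 2 higher in day 14 aMHC+ over day 7 NKX2-5+, and a median of 1.05, past the size of 1, for day 7 NKX2-5- over day 3 (0.79 as deposited). Leaving out 1711 small RNA and histone genes with equal sums gave 2 higher in the day 3 pair, 3 lower in day 7 NKX2-5+ over day 3 and 2 higher in day 14 aMHC+ over day 7 NKX2-5+. Both library exchanges were chosen after the data were seen. With day 14 aMHC+ in place of day 7 NKX2-5+, 1 member was lower than in day 7 NKX2-5-. With day 7 NKX2-5- in place of NKX2-5+, 0 were higher in day 14 aMHC+. The causes were not tested beyond the scaling itself. Depth limits values near 1 FPKM, most of all in day 7 NKX2-5+.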

Other observations

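Family symbols outside the naming rule gave a few further values. LGALS3BP, a secreted glycoprotein that binds galectin-3, was at 1.30 FPKM in day 7 NKX2-5+ against 5.29 in NKX2-5-, and at 8.54 and 13.0 in day 14 aMHC+ and aMHC-. LGALSL, a galectin-like protein gene, ranged from 0.953 to 2.73 FPKM. ANXA8L1 and ANXA8L2 stood at 1.05 and 1.71 FPKM in day 7 NKX2-5- and at most 0.509 in the other 6 libraries. ANXA8 itself was at most 0.000196 FPKM, and reads of these copies cannot be told apart.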
